A study of Mus musculus with 34 samples.

Results

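Splicing and gene expression were compared between N2A cells, a mouse neuroblastoma line, given the small molecule AW00693 and the same cells given the solvent DMSO alone. The members were chosen by treatment label, which gave 1 library of AW00693, labelled Maybridge_2_M15, and 3 of DMSO, labelled A, B and C, so 4 of the 34 libraries of the series. AW00693 was used at 5 µM for 24 h in 0.4% DMSO, and the DMSO libraries had the same time and solvent. AW00693 is one of 27 compounds with RNA-seq, which were picked from a screen for changes of microexon inclusion, and the study classes it as an inhibitor. Its library is a single culture of a single cell line, so no difference from DMSO has a replicate of the treatment behind it.

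Microexons are the shortest exons of vertebrate genes, and in neurons they are spliced into the messages of many proteins of synapses, of vesicle traffic and of the cytoskeleton. Most keep the reading frame and add or remove a few amino acids, often at a surface where proteins bind each other. Their inclusion is known to depend on the SR-related splicing factors Srrm4 and Srrm3, whereas Ptbp1 is a known repressor of many neuronal exons.

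The exons on which the results turn are shown here as spliced messages. Microexons of at most 27 nt are in capitals, and the lower-case letters are the last 15 nt of the upstream exon and the first 15 nt of the downstream exon, 5′ to 3′ on the strand of the gene. Positions are those of the microexon in the mm9 build that the event table uses. The sequences come from the GENCODE vM21 transcripts, in which 104 of the 125 microexons that fell with AW00693 were found by their length and that of both neighbouring introns, and 99 of the 104 were coding. The first 13 are among the 24 decreases with the largest ∆PSI, and Arhgef40 and Iffo1 are increases. Mef2d, Mast2, Ergic3 and Trappc9 are genes in which the study assayed a microexon, matched here by gene. The exons of Mef2d, Mast2 and Ergic3 fell, and that of Trappc9 was not called.
Synj1 exon at chr16:90971809-90971832 (− strand): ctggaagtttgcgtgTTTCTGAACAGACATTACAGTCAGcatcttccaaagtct
Kif1b exon at chr4:148639454-148639471 (− strand): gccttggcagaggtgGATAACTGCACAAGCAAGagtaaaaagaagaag
Clasp2 exon at chr9:113787868-113787891 (+ strand): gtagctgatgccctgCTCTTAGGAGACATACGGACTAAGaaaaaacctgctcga
Daam1 exon at chr12:73059734-73059760 (+ strand): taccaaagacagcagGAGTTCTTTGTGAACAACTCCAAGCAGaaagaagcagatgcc
Abi1 exon at chr2:22818734-22818748 (− strand): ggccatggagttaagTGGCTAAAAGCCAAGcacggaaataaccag
L1cam exon at chrX:71112361-71112375 (− strand): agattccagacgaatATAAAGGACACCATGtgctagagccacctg
Vav2 exon at chr2:27140359-27140373 (− strand): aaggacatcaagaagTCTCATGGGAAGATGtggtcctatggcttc
Vav2 exon at chr2:27155950-27155964 (− strand): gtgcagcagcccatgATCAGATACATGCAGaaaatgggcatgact
Git2 exon at chr5:115203157-115203162 (− strand): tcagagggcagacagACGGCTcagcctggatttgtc
Shank2 exon at chr7:151582543-151582551 (+ strand): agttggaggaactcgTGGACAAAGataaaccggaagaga
Herc4 exon at chr10:62766593-62766616 (+ strand): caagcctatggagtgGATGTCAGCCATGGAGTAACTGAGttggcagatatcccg
Eif4g1 exon at chr16:20674859-20674879 (+ strand): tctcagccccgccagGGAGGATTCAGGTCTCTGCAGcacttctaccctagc
Senp6 exon at chr9:79946693-79946713 (+ strand): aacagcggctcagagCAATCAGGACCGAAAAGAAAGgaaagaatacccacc
Mef2d exon at chr3:87965703-87965723 (+ strand): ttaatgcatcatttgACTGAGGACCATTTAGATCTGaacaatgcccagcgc
Mast2 exon at chr4:116006018-116006038 (− strand): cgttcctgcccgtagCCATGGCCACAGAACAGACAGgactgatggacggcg
Ergic3 exon at chr2:155841113-155841127 (+ strand): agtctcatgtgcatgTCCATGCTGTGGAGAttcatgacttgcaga
Trappc9 exon at chr15:72872607-72872633 (− strand): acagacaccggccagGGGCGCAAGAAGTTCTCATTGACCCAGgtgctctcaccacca
Arhgef40 exon at chr14:52624554-52624574 (+ strand): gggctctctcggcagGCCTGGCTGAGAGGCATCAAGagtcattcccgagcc
Iffo1 exon at chr6:125101813-125101821 (+ strand): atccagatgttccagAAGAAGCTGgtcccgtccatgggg
Lengths of 6, 9, 15, 18, 21, 24 and 27 nt, all multiples of 3, occurred among the exons shown. Among all 125 decreased microexons, 114 had a length that is a multiple of 3.

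Exon reads after correction for mappability came to 57491774 in the AW00693 library and to 75978445, 66602104 and 37427027 in DMSO A, B and C, and the lowest of the series was 33489970. The cells carried markers of the neuroblastoma line, and 9 of 12 listed lineage genes exceeded 5 RPKM in either condition. Phox2a and Hand2, transcription factors of the sympathetic lineage, had 77.7 and 178 RPKM (reads per kilobase of transcript, scaled to the size of the library) with AW00693 and 78.9 and 248 RPKM in DMSO. Of 12 markers of other cell types, 0 exceeded 5 RPKM, their summed level was 8.80 RPKM with AW00693 and 5.00 RPKM in DMSO, and Sox10 and Epcam were listed at 0 in both. In such bulk samples, fewer cells of a type and less RNA per cell cannot be told apart.

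Microexons were lost far more often than they were gained in the cells given AW00693. Inclusion is given as PSI, the percent of a gene's messages that contain the exon, and ∆PSI is the PSI with AW00693 minus the mean of the DMSO libraries. An event was called where ∆PSI was at least 10 in size with a posterior probability above 0.95 from its reads. Of 588 microexons that passed the coverage filters, out of 1840 listed, 125 fell (21.3%) and 4 rose (0.680%). When each DMSO library was set against the others in the same way, 0.524%, 0.873% and 1.57% of 573 microexons were called lower. The 125 calls are 124 exons in 117 genes, since 1 exon of Senp6 is listed under 2 event numbers.

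The losses of the called microexons were large beside the spread among the DMSO libraries. These exons were called for a loss of at least 10 PSI. The size of their losses and their place below DMSO therefore follow in part from the call itself. Over the 125 decreased microexons, the median ∆PSI was −20.3 (range −48.8 to −10.1) and the median SD of the DMSO libraries was 2.53 PSI (n = 3). The loss reached 20 PSI in 63 of them, 30 PSI in 23 and 40 PSI in 6. All 125 had a PSI below every DMSO library, as did 46.4% of all microexons that passed and 20.5% of cassette exons, and in 106 the gap to the nearest DMSO library was at least 10 PSI. The AW00693 library had a median of 261 reads over these exons and no fewer than 26. With a spread between libraries learned from DMSO (a beta-binomial model), 122 of the 125 were still called. limma, which fits all exons together and takes the spread from DMSO, gave 105 of the 119 it could fit an unadjusted p below 0.05, but the smallest adjusted p of a microexon was 0.14, and 0 microexons passed an adjusted p of 0.05. An exact permutation test of 1 library against 3 cannot give a p below 0.25. Each call therefore compares these libraries, not the treatment in general.

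The largest losses were those of Cdon, Scyl2 and Synj1. In Cdon, a cell surface co-receptor for Hedgehog ligands, the 14-nt exon at chr9:35283315-35283328 (mm9, + strand) had a PSI of 18.7 with AW00693 and of 62.0, 60.8 and 79.8 in DMSO A, B and C (∆PSI −48.8). The level of Cdon itself was higher, at 11.3 RPKM against 4.95 RPKM in DMSO. In Scyl2, a pseudokinase that binds clathrin, the 12-nt exon at chr10:89117080-89117091 (− strand) went to 35.6 from 81.7, 82.3 and 85.5 (∆PSI −47.6). The 24-nt exon of Synj1, the synaptojanin phosphatase of synaptic vesicle recycling, at chr16:90971809-90971832 (− strand), was at 18.3 against 64.8, 66.5 and 62.5 (∆PSI −46.3). In each of these genes the DMSO libraries lay more than 40 PSI above the treated one.

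Further exons of vesicle and membrane traffic fell. Asap2, a GTPase-activating protein of Arf, lost its 4-nt exon to a PSI of 51.7 from 88.3, 92.2 and 93.4 (∆PSI −39.6). Gopc, a PDZ protein of the Golgi, had 52.6 for its 24-nt exon against 89.3, 86.5 and 90.9 (∆PSI −36.3). The 6-nt exon of Git2, another GTPase-activating protein of Arf, was at 43.0 against 76.2, 84.69 and 75.02 (∆PSI −35.6). Sypl, a relative of the synaptic vesicle protein synaptophysin, had 27.6 for its 10-nt exon against 60.0, 59.0 and 62.9 (∆PSI −33.1), and Kif1b, a kinesin motor of vesicle transport, had 62.4 for its 18-nt exon against 92.9, 95.5 and 93.5 (∆PSI −31.6). Of 23 microexons measured in a list of genes of vesicle traffic, 14 fell and 0 rose, beside 21.3% that fell over all microexons. The lists of host genes by function were chosen with earlier results of these data known, so their shares are a description. Between 10 and 90 PSI in DMSO 8 of 13 fell, near the 59.4% of all microexons in that range. The median ∆PSI of these 13 was −13.4, beside −13.3 over all 160 microexons in that range.

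Regulators of microtubules and actin and adhesion molecules also lost microexons. Clasp2, which binds the growing ends of microtubules, had a PSI of 35.5 for its 24-nt exon at chr9:113787868-113787891 (+ strand) against 82.9, 80.9 and 75.2 (∆PSI −44.2), and of 10.8 for another 24-nt exon against a DMSO mean of 37.2 ± 8.21 (SD, n = 3). Its relative Clasp1 lost exons of 24 nt, at 40.2 against 68.7 ± 3.46, and of 27 nt, at 13.5 against 33.8 ± 5.64. The microtubule polymerase Ckap5 and the plus-end protein Clip1 had ∆PSI values of −32.0 and −29.2. Daam1, a formin that builds actin filaments, had 20.7 for its 27-nt exon against 61.7, 56.1 and 64.4 (a mean loss from 60.7 PSI). Abi1, a subunit of the WAVE complex that starts actin branching, had 60.9 for its 15-nt exon against 93.6, 93.7 and 92.1 (∆PSI −32.3). L1cam, a neuronal adhesion molecule, had 53.03 for its 15-nt exon against 80.3, 86.8 and 87.9 (∆PSI −32.0), and 27.7 for its 12-nt exon against 40.7 ± 2.32. None of these treated values overlapped the DMSO values, which held for all 125 decreased microexons. In the list of adhesion and cytoskeleton genes, 19 of 36 microexons fell and 0 rose, beside 21.3% that fell over all microexons. Between 10 and 90 PSI 12 of 16 fell, beside 59.4%, with a median ∆PSI of −20.1. This list too was chosen with earlier results known. It did not hold the adhesion gene Ncam1, whose 3-nt exon rose (∆PSI 10.9).

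Some microexons of exchange factors that switch on small GTPases fell as well. Those of Arhgef12 and Rapgef2 were not called (∆PSI −2.4 and −8.72), and that of Arhgef40 rose (12.8). No share was taken over exchange factors as a group. Dock4 had a PSI of 41.6 for its 27-nt exon against 81.4, 78.0 and 79.6 (∆PSI −38.0). Vav2 lost 2 exons of 15 nt, at 41.4 against 74.1, 76.8 and 73.0, and at 54.8 against 80.1, 85.0 and 93.3. Shank2, a scaffold of the postsynaptic density, had 19.9 for its 9-nt exon against 58.3, 64.1 and 37.6 (∆PSI −33.5), so the DMSO values of this exon spread widely but did not reach the treated one. Herc4, a ubiquitin ligase, had 49.7 for its 24-nt exon against 86.1, 92.8 and 91.0 (∆PSI −40.3). In the list of signalling genes 9 of 16 microexons fell and 0 rose, beside 21.3% that fell over all microexons. Between 10 and 90 PSI 9 of 10 fell, beside 59.4%, with a median ∆PSI of −19.6. Earlier results were also known when this list was chosen.

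**Figure D1:**
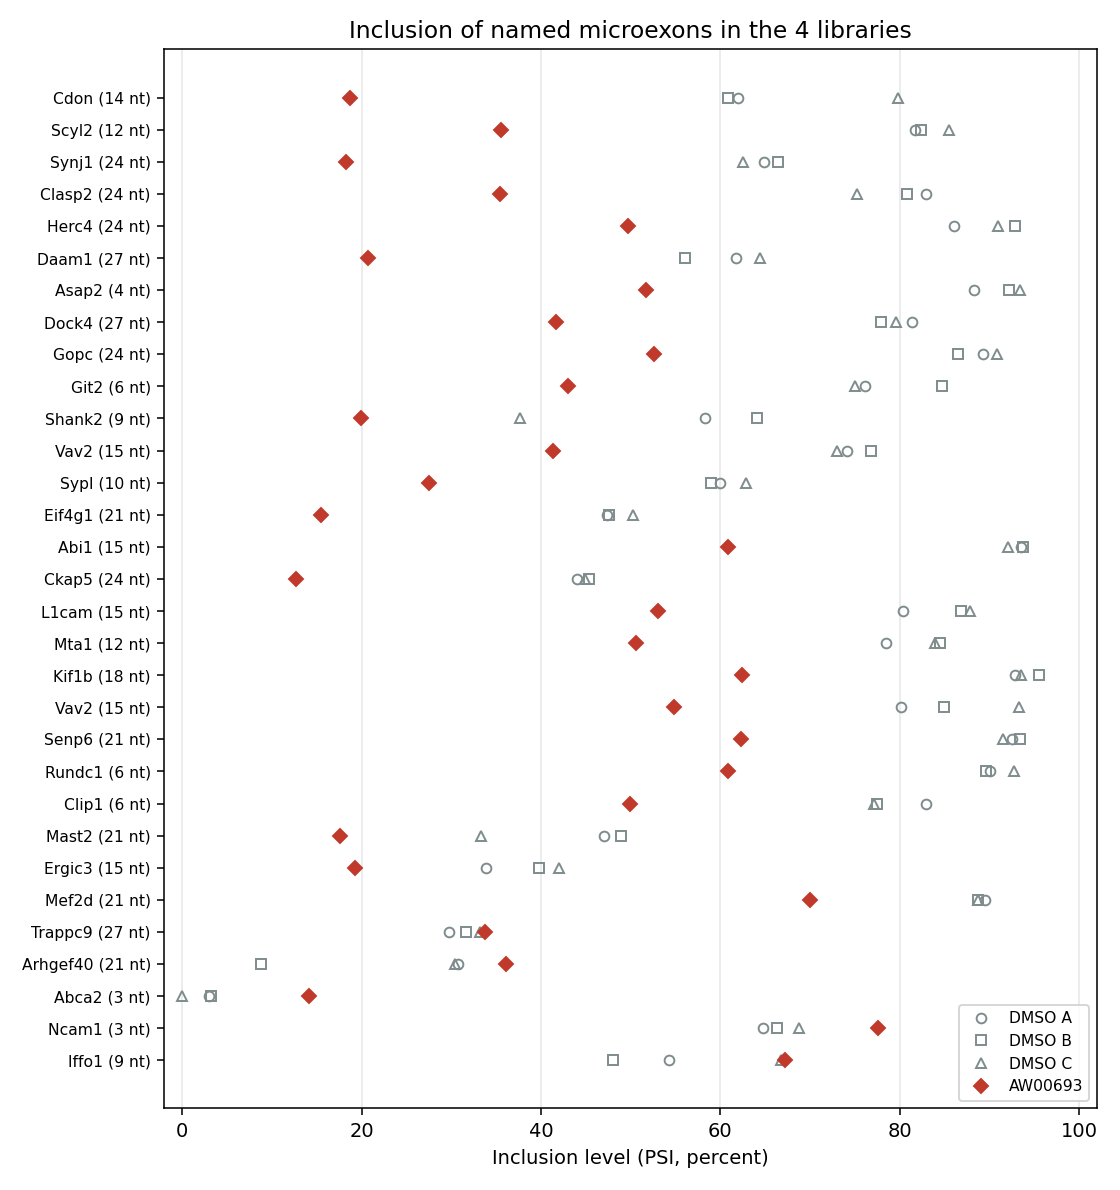
PSI (percent) of the named microexons, with AW00693 as a diamond and DMSO A, B and C as open symbols. The rows hold first 23 of the 24 largest decreases, then 4 in genes that the study assayed and the 4 increases. In the first 23 rows every AW00693 point lies to the left of all 3 DMSO points, which was a condition of their choice. The widest gap of these rows is in Scyl2 and the widest DMSO spread in Shank2.

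Other large losses were in genes of other functions. Eif4g1, the scaffold of the translation initiation complex, had a PSI of 15.4 for its 21-nt exon against 47.3, 47.5 and 50.2 (∆PSI −32.9). Senp6, a protease that removes SUMO, had 62.3 against 92.6, 93.4 and 91.5 for its 21-nt exon (∆PSI −30.2 and −25.6 under its 2 event numbers). Mta1, a subunit of the NuRD chromatin complex, had 50.6 for its 12-nt exon against 78.4, 84.5 and 84.0 (∆PSI −31.7), and Rundc1 had 60.8 for a 6-nt exon against 90.1, 89.6 and 92.7 (DMSO mean 90.8). In the list of chromatin and transcription genes 3 of 8 microexons fell, in Mef2d, Phf21a and Zmynd8, and 0 rose, beside 21.3% that fell over all microexons. All 3 were among the 5 between 10 and 90 PSI, where 59.4% of all microexons fell, and the median ∆PSI of the 5 was −14.8.

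In most of the genes whose exons the study assayed singly, an exon fell. Exons were matched to those assays by gene. The study picked compounds for RNA-seq partly by large effects on assayed exons, so falls in these genes were in part selected for. It describes its assays of Ergic3 and Mgrn1 for compounds predicted to promote splicing. The 21-nt exon of Mast2, a microtubule-associated kinase, was at 17.6 against 47.1, 48.9 and 33.3 (∆PSI −25.5). The 15-nt exon of Ergic3, a protein that cycles between the endoplasmic reticulum and the Golgi, was at 19.3 against 33.9, 39.8 and 42.0 (∆PSI −19.3), and the 21-nt exon of the transcription factor Mef2d was at 70.03 against 89.5, 88.7 and 88.7 (∆PSI −19.0). Trappc9, a subunit of a vesicle tethering complex, had 33.7 for a 27-nt exon against 29.7, 31.6 and 33.2 and was not called (∆PSI 2.17). The study chose its Trappc9 microexon for rather high inclusion in control cells. The exon here had a DMSO mean of 31.5, below the 38.5 of Ergic3. Whether it is the assayed exon was not tested. Exons above the microexon length fell in other assayed genes, again matched by gene alone. A 45-nt exon of Asph, an aspartyl hydroxylase gene, was at 31.2 against 70.8, 56.5 and 57.5 (∆PSI −30.4). The other Asph exons that passed were not called, among them one of 48 nt at 32.7 against a DMSO mean of 26.3. A 36-nt exon of Zdhhc20, a palmitoyltransferase, was at 11.9 against 28.96, 41.4 and 31.3 (∆PSI −22.0), and the other Zdhhc20 exons that passed were not called. In Mgrn1, a ubiquitin ligase gene, 0 of the 10 exons that passed were called, and its exons of 45 and 66 nt had 20.4 and 12.1 PSI against 19.9 and 9.80 in DMSO. The short exon of Rest was not analysed here.

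Several genes lost more than 1 microexon, not always of the same starting level. Ptk2, the focal adhesion kinase, lost 3, of 18 nt (36.7 against 56.6), 21 nt (84.8 against 98.7) and 9 nt (80.4 against 92.5). Mon2, a protein of endosome to Golgi traffic, lost a 3-nt exon that was at 30.7 PSI in DMSO (8.16 with AW00693) and an 18-nt exon that was at 98.8 PSI (79.9 with AW00693). Clasp1, Clasp2, L1cam and Vav2 lost 2 each.

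Loss was found at every level of inclusion above the lowest. Of microexons at 0 to 10 PSI in DMSO, which can hardly lose 10 PSI, 0 of 219 were called lower. At 10 to 30 PSI, 22 of 53 fell and the median microexon kept 48.4% of its DMSO level, at 30 to 70 PSI 46 of 65 fell and the median kept 57.0%, and at 70 to 90 PSI 27 of 42 fell and the median kept 80.0%. Above 90 PSI, 30 of 209 fell, among them exons of Dock11, a guanine nucleotide exchange factor (73.7 against 99.6 ± 0.70), of Myo5a, a myosin motor (75.5 against 97.98 ± 0.42), and of Ank2, an ankyrin (79.0 against 99.4 ± 1.03). These 3 were chosen after their values were seen. Within 10 to 90 PSI, where either direction was possible, 95 of 160 fell (59.4%), 3 rose (1.88%), and 34 stayed within 5 PSI of DMSO. In this range the AW00693 value was below all DMSO libraries in 131 (81.9%) and above all of them in 12 (7.50%). The single DMSO libraries set against the others gave 1.40% to 6.25% decreases in the same range. Near the threshold, an exon of Ncor1, a nuclear receptor co-repressor, was called at 45.3 against 55.4 (∆PSI −10.1), and one of Vps29, a retromer subunit, at 44.5 against 54.4 was not (∆PSI −9.88).

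**Figure D2:**
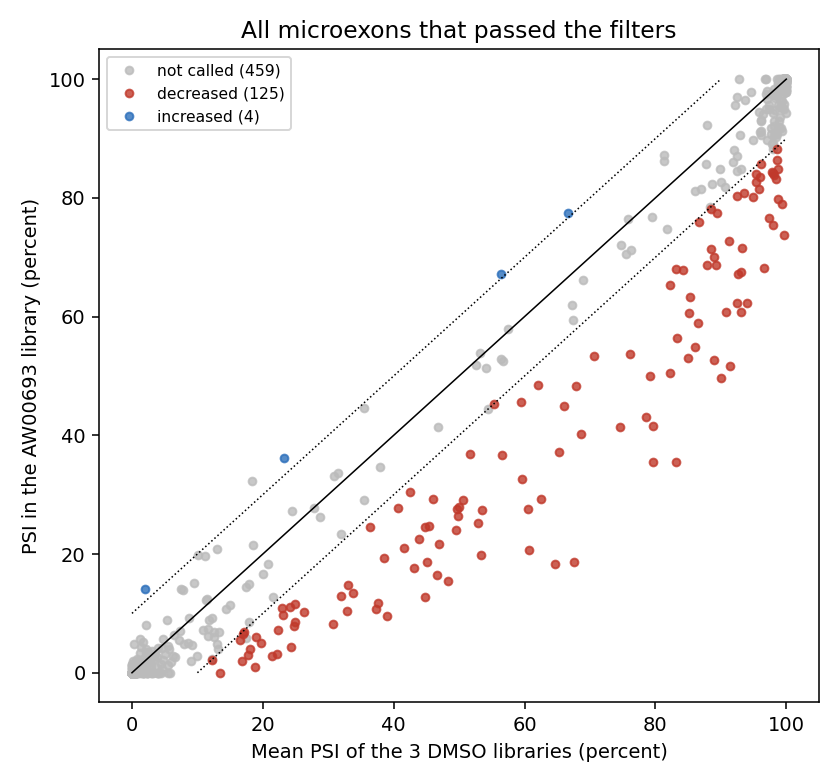
PSI (percent) with AW00693 against the mean PSI in DMSO for the 588 microexons that passed, with called decreases and increases in colour, the diagonal as a solid line and differences of 10 PSI as dotted lines. The 125 decreases lie below the diagonal from about 10 PSI up to full inclusion, and the 4 increases lie above it.

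The 4 microexons that rose did so by little, and none of them reached 15 PSI. Ncam1, a neural cell adhesion molecule, had 77.5 for its 3-nt exon against 64.8, 66.3 and 68.8 (∆PSI 10.9). Abca2, a lipid transporter of the ABC family, had 14.1 for a 3-nt exon against 2.95, 3.21 and 0.0 (∆PSI 12.04). Iffo1, of the intermediate filament family, had 67.2 for its 9-nt exon against 54.3, 48.0 and 66.8 (∆PSI 10.9), and Arhgef40, a guanine nucleotide exchange factor, had 36.1 for its 21-nt exon against 30.7, 8.77 and 30.4 (∆PSI 12.8). The Iffo1 and Arhgef40 values lay close to one or more DMSO libraries. The call for Arhgef40 was lost without DMSO B (∆PSI 5.57), that for Ncam1 without DMSO A (∆PSI 9.98), and that for Iffo1 without DMSO A (∆PSI 9.85) or B (∆PSI 6.69) and under the beta-binomial model. The number of increases, 4 of 588, was no larger than the 4 to 7 of 573 in the DMSO libraries set against each other.

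Longer exons fell less often. Of 56987 cassette exons above 27 nt that passed, 698 fell (1.22%) and 243 rose (0.426%), against 0.311% to 0.580% and 0.276% to 0.364% in the single DMSO libraries. At 10 to 90 PSI in DMSO, 369 of 2716 cassette exons fell (13.6%) and 219 rose (8.06%), and the median ∆PSI was −1.43 against −13.3 for microexons. The single DMSO libraries gave 3.14% to 5.49% decreases and 5.75% to 7.71% increases in this range, so the share that rose was close to that among the DMSO libraries. The AW00693 value was below all DMSO libraries in 39.8% of these cassette exons and above them in 25.1%. A negative ∆PSI was found for 140 of the 160 microexons (87.5%) and for 1551 of the 2716 cassette exons (57.1%). The exons share their libraries, and the shares are given as a description of the 4 libraries with no p.

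The share of exons that fell went down as exon length went up. Among exons at 10 to 90 PSI, 59.3% of 27 exons of 3 to 9 nt fell, 67.6% of 37 of 10 to 15 nt, 59.5% of 37 of 16 to 21 nt, and 54.2% of 59 of 22 to 27 nt. Within the microexons there was thus little difference between length classes. The share was 26.6% of 267 exons of 28 to 50 nt, 13.8% of 1064 of 51 to 100 nt, 11.1% of 1137 of over 100 and up to 200 nt, and 10.1% of 248 longer exons. The median ∆PSI ran in the same order beyond the microexons, from −13.1 at 22 to 27 nt through −5.29 at 28 to 50 nt to −0.16 above 200 nt.

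**Figure D3:**
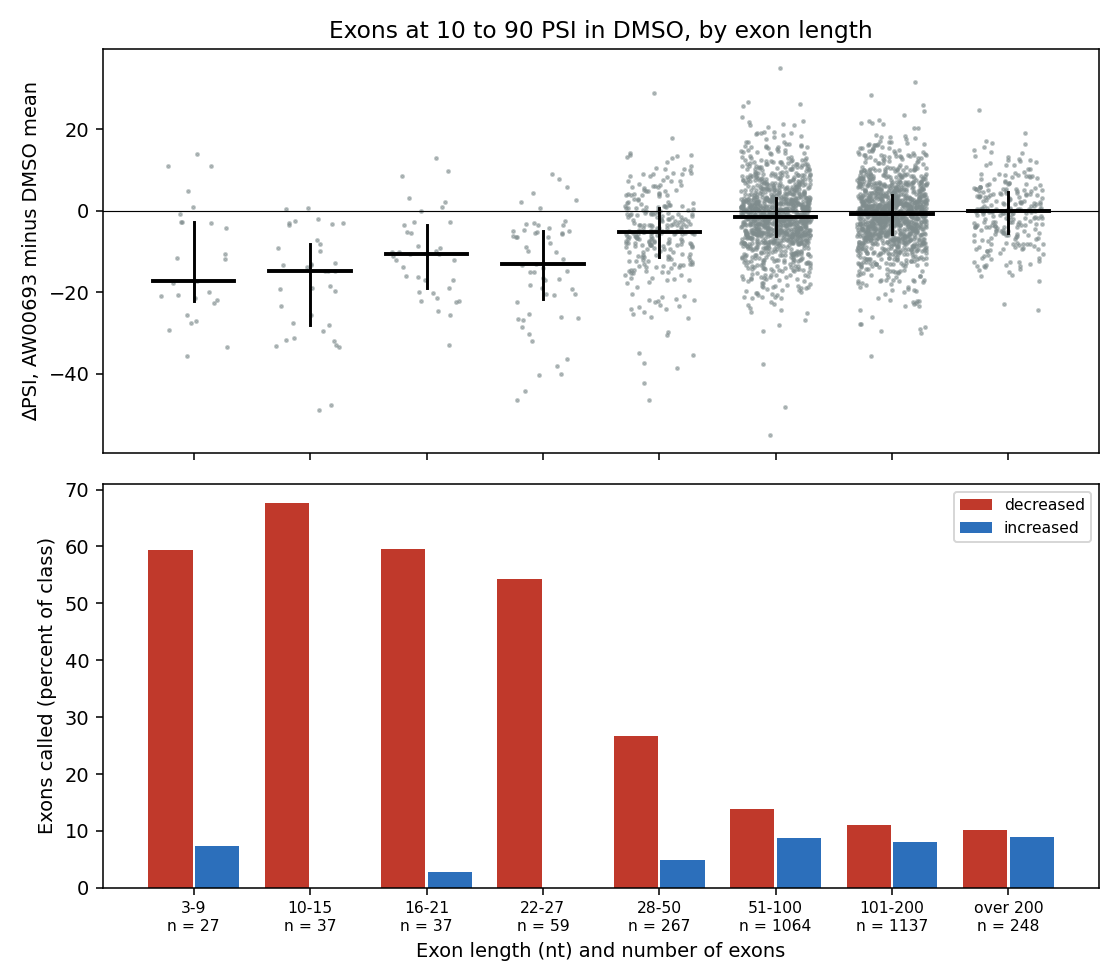
Exons at 10 to 90 PSI in DMSO by length in nt, with ∆PSI of each exon (top, with the median and the quartiles) and the percent of exons called lower and higher with AW00693 (bottom). Decreases stand at 54.2% to 67.6% in the 4 classes up to 27 nt, at 26.6% for 28 to 50 nt and at 10.1% above 200 nt, while increases stay below 9% throughout.

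Features that the calls did not use differed little between the microexons that fell and those that did not. In the range of 10 to 90 PSI, 92.6% of the 95 that fell and 87.1% of the 62 not called had a length that is a multiple of 3. For cassette exons the same shares were 52.0% and 51.2%, and 59.4% for those that rose. The upstream and downstream introns had medians of 1606 and 1467 nt beside microexons that fell and of 1364 and 1709 nt beside those not called. Median GC content was 46.7% for 77 that fell and 49.0% for 50 not called, and 83.1% and 88.0% ended in G, over those with a sequence. The splice sites and the introns themselves were not read, since no genome of the mm9 build was used here.

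Set beside the other compounds, the AW00693 library had among the lowest microexon levels of the series. The mean PSI over the 111 microexons at 10 to 90 PSI in DMSO that passed in all 34 libraries was 36.5 with AW00693, against 52.8, 52.4 and 52.7 in DMSO A, B and C. It was lower only with the compound T5985871 (34.4), and the next were T5758020 (40.5) and T5635931 (40.9). Over 1844 cassette exons chosen in the same way, the mean was 61.5 with AW00693 and 63.4 to 63.8 in DMSO, and 6 libraries were lower. Among the named microexons, those of Scyl2, Synj1, Clasp2 (at chr9:113787868-113787891), Daam1, L1cam (15 nt) and Kif1b had lower values with AW00693 than with every other compound that gave a value (25 or 26), whose lowest in Scyl2 and Synj1 were 37.3 and 23.9 PSI. These exons were picked for low values with AW00693, so this is a description.

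The cassette exons with the largest differences lay in genes of varied function. A 145-nt exon of Heatr7a, at chr15:76257942-76258086 (+ strand), had a PSI of 26.1 with AW00693 against 100 in each DMSO library (∆PSI −73.9), and the other 26 compounds had 88.7 to 100. In Ralgapa2, a GTPase-activating subunit for Ral, a 59-nt exon at chr2:146182824-146182882 (− strand) had 34.5 against 87.2, 86.1 and 95.1 (∆PSI −55.0), also below all 19 other compounds with a value (lowest 66.3). These exons stood apart from every other library measured. Reep6, a protein that shapes the endoplasmic reticulum, had ∆PSI −48.2 for an 81-nt exon, and Acbd5, a peroxisomal acyl-CoA binding protein, had ∆PSI −46.5 for an exon of 33 nt. Ankrd45 (43 nt, ∆PSI −42.3), Meaf6 (30 nt, a subunit of histone acetyltransferase complexes, −38.7), Parp6 (70 nt, −37.7) and the DNA repair gene Ercc6 (45 nt, −37.3) followed. Of these 8 exons, 4 were of 45 nt or less.

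Gains of cassette exons were smaller than the largest losses. Svop, a transporter-like protein of synaptic vesicles, had 73.9 for a 167-nt exon against 39.2, 44.1 and 43.7 (∆PSI 31.6). Myo18a, an unconventional myosin, had 64.6 for a 45-nt exon against 36.3, 36.2 and 35 (∆PSI 28.8). Atg2a, a lipid transfer protein of autophagy, had 91.8 for a 165-nt exon against 62.4, 60.7 and 67.2 (∆PSI 28.4). Arfgap1, a GTPase-activating protein of Arf at the Golgi, had 36.9 for a 60-nt exon against 6.96, 8.69 and 13.4 (∆PSI 27.2), which was above all other compounds (highest 34.8). Gains of cassette exons were named only where AW00693 lay above all DMSO values. Dos had 79.5 for an exon of 54 nt (∆PSI 25.8), and exons of 1810020D17Rik, 2310037I24Rik and 3110052M02Rik had ∆PSI values of 35.04, 26.7 and 26.1.

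Intron retention was higher more often than lower over all introns, but not among those of intermediate retention. Of 85708 introns that passed, 306 were retained more (0.357%) and 149 less (0.174%). Of 1616 at 10 to 90% in DMSO, 111 were retained more (6.87%) and 145 less (8.97%), where the single DMSO libraries gave 3.60% to 5.75% and 5.67% to 9.41%. The DMSO libraries set against each other gave 0.113%, 0.121% and 0.256% more and 0.0927% to 0.155% less, with the most increases in DMSO C, which had the fewest reads. An intron of Tdrd7, a Tudor domain protein, had 43.2% retention with AW00693 against 0.95%, 1.41% and 7.32% in DMSO A, B and C, and at most 25.8% with any other compound. Psrc1, a gene of the mitotic spindle, had 45.8% against 9.26%, 4.58% and 15.3%, and at most 36.7% with the others. Ddx11, a DNA helicase, had 80.5% against 44.0%, 58.8% and 46.0%, and Ap4m1, a subunit of the AP-4 vesicle adaptor, had 31.9% against 4.35%, 0.0% and 3.70%. Zfyve27, the endosomal protein protrudin, had 71.4% against 34.9%, 34.1% and 52.4%. Among the 5 largest reductions the DMSO values were further apart, as in 2010007H12Rik (2.56% against 34.6%, 13.3% and 53.9%) and in Hdac10, a deacetylase gene (40.0% against 56.8%, 67.6% and 84.6%). The others were 2310014L17Rik (∆PSI −43.2), Fam113a (−32.6) and Spna2, the gene of a spectrin (−32.4).

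Alternative splice sites moved in both directions in similar numbers. Of 28395 sites at 3′ or 5′ exon ends, 304 were used less (1.07%) and 316 more (1.11%). The single DMSO libraries gave 0.483% to 0.716% less and 0.483% to 0.820% more, for 3′ and 5′ sites counted apart. Several of the largest differences had DMSO libraries far apart, as for a 3′ site of Mbtd1, a chromatin reader, at 9.02 against 20.98, 66.0 and 97.4, and of Rpl10a, a ribosomal protein gene, at 75.5 against 15.02, 54.1 and 51.2. Closer DMSO values were seen for Rpl37, also a ribosomal protein gene (60.9 against 28.4, 25 and 30.4), and for Tfam, the mitochondrial transcription factor (25.4 against 51.2, 58.6 and 65.5). Dennd2a and Ankhd1 had ∆PSI values of −37.1 and −38.4, and Dopey1 and Plekhg2 of 33.1 and 30.9. At 10 to 90 PSI the median ∆PSI was −0.48 for 3′ sites, −0.04 for 5′ sites and −1.59 for introns.

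Gene levels were then compared, for which each treatment had 1 value in RPKM with the DMSO libraries merged. There is therefore no replicate error and no test, and a gene was counted past a 2-fold ratio of RPKM + 0.5. Of 9727 genes above 5 RPKM in either condition, 246 were higher with AW00693 (2.53%) and 250 lower (2.57%), with a median log2 ratio of −0.03. Short noncoding RNA genes took a large share of the higher ones, at 71 of 186 such genes above 5 RPKM, with 14 lower. The libraries were polyA+, and how well such libraries measure short noncoding RNAs was not tested. Of 8272 protein-coding genes, 122 were higher and 185 lower.

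Among protein-coding genes with an approved symbol that were listed above 0 in both conditions, the highest ratio was that of Gadd45b, a stress-induced regulator of growth arrest, at 443 RPKM against 6.21 RPKM in DMSO (log2 ratio 6.05). Its relatives Gadd45a and Gadd45g, named after their values were seen, were at 28.95 and 25.7 RPKM against 12 and 7.88 RPKM. Sgk1, the kinase induced by serum and glucocorticoid, had 426 RPKM against 36.7 RPKM (3.52), and Sertad1, a cell cycle co-regulator of transcription, had 54.6 against 6.26 RPKM (3.03). Adm, the peptide hormone adrenomedullin, had 12.9 against 0.98 RPKM (3.18), and Fos, an immediate early transcription factor, had 23.6 against 2.87 RPKM (2.84). Gadd45b, Sgk1, Sertad1, Adm and Fos were each still higher with the inhibitor T5985871, which had the highest level of the other compounds. Actc1, the cardiac actin, had 8.36 RPKM against 0.05 RPKM (4.01). This was just above the highest of the 26 other compounds, 7.85 RPKM with the inhibitor T5635931. Chst15, a chondroitin sulfotransferase, had a log2 ratio of 3.19, Mgarp, a mitochondrial protein, 2.98, Osgin1 2.84, Rasl11b 2.83, Ccnb1ip1 2.82 and the histone gene Hist1h2ai 2.64. Actc1, Chst15, Adm, Fos, Osgin1, Rasl11b and Hist1h2ai were below 5 RPKM in DMSO. They passed the 5 RPKM filter only through their AW00693 value.

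The lowest ratios among the same genes were smaller in size. Cdkn3, a phosphatase of cyclin-dependent kinases, had 4.24 RPKM against 18.02 RPKM (log2 ratio −1.97), and Knstrn, a protein of the mitotic spindle, had 35.4 against 115 RPKM (−1.68). Serpinh1, the collagen chaperone, had 1.23 against 5.86 RPKM (−1.88), Taz, the tafazzin of cardiolipin remodelling, had 2.96 against 11.6 RPKM (−1.80), and Napb, a SNAP protein of vesicle fusion, had 8.48 against 28.4 RPKM (−1.69). Serpinh1, Necab3 (1.5 against 6.67 RPKM), Taz and Pafah2 (8.87 against 29.5 RPKM) were below all 26 other compounds. The lowest values of the other compounds were 1.63, 2.27, 3.28 and 9.93 RPKM, in this order of genes. Cdkn3, Serpinh1, Necab3, Taz, Mgst2, Srxn1 and Sapcd2 were below 5 RPKM with AW00693 and passed the 5 RPKM filter only through DMSO. Capn6 had a log2 ratio of −1.78, the glutathione transferase Mgst2 −1.75, the sulfiredoxin Srxn1 −1.73, Sapcd2 −1.70, and Bcl2l2, a survival factor of the Bcl2 family, −1.67.

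**Figure D4:**
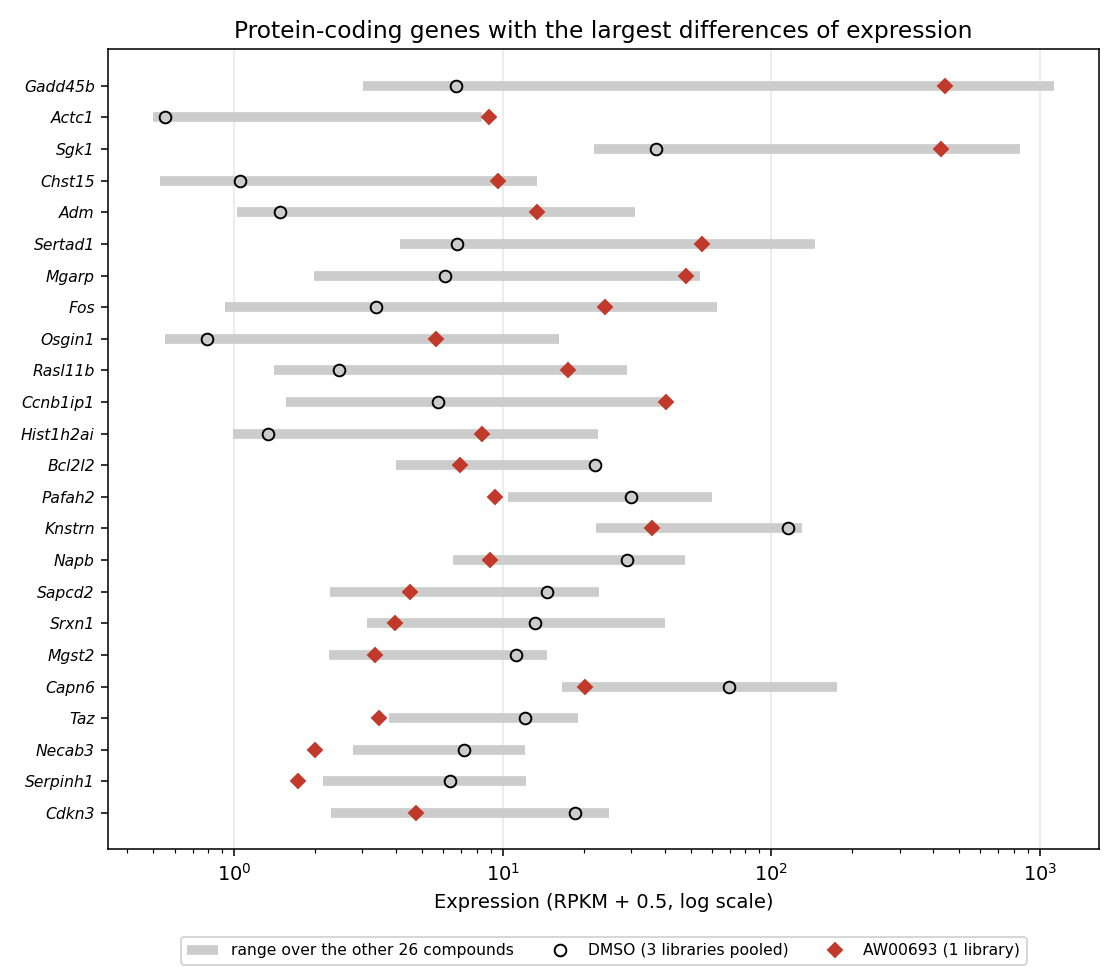
Level in RPKM + 0.5 on a log axis of the 12 protein-coding genes with the highest and the 12 with the lowest ratio, with the merged DMSO value as a circle, AW00693 as a diamond and the range over the 26 other compounds as a bar. Gadd45b has the widest distance between its points, and Actc1 lies just above its bar.

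Splicing factors that act on microexons differed in both directions. Of 33 listed, 26 exceeded 5 RPKM, 1 was more than 2-fold higher, 2 were lower, and the median log2 ratio was −0.16. Srrm3 had 7.39 RPKM against 18.5 RPKM in DMSO (log2 ratio −1.27), and Srrm4 had 5.93 against 10.4 RPKM (−0.76), which is within 2-fold. Celf3, a neuronal RNA-binding protein, had 34.1 against 105 RPKM (−1.61), whereas Rbm38, an RNA-binding protein and p53 target, had 160 against 40.6 RPKM (1.96). The repressor Ptbp1 had 610 against 476 RPKM (0.36), its neuronal relative Ptbp2 had 93.0 against 89.0 RPKM and Ptbp3 had 38.1 against 39.1 RPKM. Srsf11, an SR protein that acts on microexons with Srrm4, had 141 against 104 RPKM (0.43), just above the highest other compound (140 RPKM). Rest, the repressor of neuronal genes, had 6.49 against 4.74 RPKM (0.42). Whether any of these levels had a part in the microexon losses was not tested.

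The remaining listed splicing factors above 5 RPKM were within 2-fold. Elavl4 had 74.3 against 131 RPKM (−0.81), Elavl2 91.4 against 123 (−0.43), Elavl1 88.7 against 116 (−0.38) and Elavl3 17.1 against 22.4 (−0.38). Rbfox1 and Rbfox2 had log2 ratios of −0.99 and −0.28, Celf6, Celf4 and Celf1 of −0.96, −0.56 and −0.37, and Nova2 and Nova1 of −0.57 and 0.26. Members of the Elavl, Rbfox and Celf families above 5 RPKM, Celf3 included, all had ratios below 0, while the Nova genes went in opposite directions. For comparison, 46.8% of all genes above 5 RPKM had a ratio above 0. Mbnl1 had 93.3 against 94.0 RPKM, a ratio whose sign turned when the values were centred on the median of all genes, and Mbnl2 had 27.8 against 27.1 RPKM. Khdrbs1 had 73.2 against 70.1 RPKM, Rnps1 124 against 110 RPKM, Srrm1 291 against 251 RPKM and Srrm2 96.5 against 83.9 RPKM. Celf2, Celf5, Khdrbs2, Khdrbs3, Mbnl3 and Rbfox3 were under 5 RPKM in both, and Qki was not found by its symbol. Among 35 SR and hnRNP genes 0 passed 2-fold (median log2 ratio 0.16), and among 36 genes of the core spliceosome 0 did (0.18).

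The genes that carry the lost microexons kept their levels in general. Of 107 host genes above 5 RPKM with a decreased microexon, 2 were more than 2-fold higher (1.87%), Cdon and Sypl (57.7 against 25.2 RPKM), and 0 lower, beside 2.53% and 2.57% over all genes. The median log2 ratio was −0.05, and Cdon passed the 5 RPKM filter only through AW00693. Host genes of microexons that were not called had a median of −0.06 over 337 genes. Genes with an intron retained more had a median of −0.21 over 178 genes, of which 2 were higher and 8 lower (4.49%), next to −0.03 over all genes. The 4 lists of microexon host genes by function had medians of −0.09 (vesicle traffic), −0.07 (adhesion and cytoskeleton), −0.01 (chromatin and transcription) and 0.04 (signalling), and 1 gene of the 4 lists passed 2-fold, Cdon.

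The lists of stress pathways held from 0 to 3 genes past 2-fold. All counts of listed genes are over members above 5 RPKM in either condition, beside 2.53% higher and 2.57% lower over all genes. Of all genes above 5 RPKM, 46.8% had a ratio above 0. Of 14 immediate early genes 9 were above 5 RPKM and 3 were higher, Fos, Arc (16.3 against 4.55 RPKM) and Nr4a2 (12.1 against 3.79 RPKM), with a median log2 ratio of 0.34. All 3 were below 5 RPKM in DMSO and passed the filter only through their AW00693 value, so the count had to be of higher genes. In the MAPK feedback list 2 of 13 were higher, Ier3 (16.8 against 5.57 RPKM) and Phlda1 (17.1 against 5.40 RPKM), with a median of 0.09. Hsph1 (324 against 151 RPKM) and Bag3 (136 against 61.9 RPKM), both of the heat shock response, were higher among 9 (median 0.27). In the integrated stress response the phosphatase subunit Ppp1r15a was higher (48.5 against 16.3 RPKM) and Chac1, a glutathione-degrading enzyme, lower (11.3 against 35.6 RPKM), among 29 genes with a median of −0.06. Xbp1, a transcription factor of the unfolded protein response, was lower (18.5 against 39.9 RPKM), while 14 of the 16 genes of that list had ratios above 0 (median 0.30). In the p53 target list 0 of 12 passed 2-fold (median 0.05). Rbm38, named above as a p53 target and more than 2-fold higher, was not on this list.

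Metabolic and other lists had few members past 2-fold as well. The share of all genes above 5 RPKM with a ratio above 0 was 46.8%, and their median was −0.03. Among 28 genes of sterol and fatty acid synthesis, 24 had ratios below 0 (median −0.25), of which 1, the mevalonate kinase gene Mvk, passed 2-fold (8.20 against 17.3 RPKM). In the hypoxia and glycolysis list 3 of 21 were higher, Adm, Ankrd37 (24.8 against 4.31 RPKM) and Txnip, an inhibitor of thioredoxin (20.3 against 7.45 RPKM), with a median of 0.16. Adm and Ankrd37 passed the 5 RPKM filter only through AW00693. The mitochondrial transcripts mt-Co2 (2507 against 5410 RPKM) and mt-Nd3 (1242 against 3551 RPKM) were lower while 10 of the 13 had ratios above 0 (median 0.29). Of 43 cell cycle genes 1 passed 2-fold, the mitotic kinase gene Aurka (236 against 116 RPKM), and the median was −0.06. Osgin1, which passed the filter only through AW00693, was higher and Srxn1 lower among 8 genes of oxidative and metal stress (median −0.07), Bst2 was higher among 3 interferon genes (15.4 against 6.99 RPKM; median 0.60), and the 1 measured target of the aryl hydrocarbon receptor had a ratio of 0.50. Of 17 neuronal and neuroendocrine genes 13 had ratios below 0 (median −0.30) and 1 passed 2-fold, the neuronal enolase gene Eno2 (7.82 against 20.8 RPKM). Of 9 lineage genes 1 did, the transcription factor gene Gata3 (15.5 against 7.34 RPKM), with a median of 0.10.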

How the data were processed

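PolyA+ RNA-seq of N2A cells was analysed from 1 library of AW00693 and 3 of DMSO, grouped by the treatment label. The deposited PSI values, in percent, were made by the authors with vast-tools, with a deposited quality string per library that holds corrected read counts and coverage scores. Coordinates are in mm9, the build in the submitters' processing notes. Gene levels are deposited as RPKM, which the authors derived from transcript estimates of Salmon (0.10.2 in those notes) with replicates merged. The deposited log2 fold changes, p-values and FDR of the authors' own comparisons (edgeR) were not used, and 0 columns of values per sample were left out.

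Events needed sufficient coverage with AW00693 and in at least 2 DMSO libraries. Exons also needed balanced reads where a balance score was given, and alternative splice sites had no balance filter. Introns needed 15 reads or more with a balance p over 0.05. Calls used 2000 draws per library from a beta distribution. The ratio of RPKM used a pseudocount of 0.5. The design assumed counts or levels per library for genes, but 1 merged value a condition allows no test.

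The 23 gene lists and the members were chosen with earlier results of these data known. The text names exons of the assayed genes, the 24 largest decreases of microexons and all increases with at least 20 reads. It also names the 8 largest changes each way of cassette exons, 5 of introns, 4 of splice sites and 12 of genes. Among these largest changes of splicing, decreases and all increases except those of microexons had to lie outside all DMSO values. List members past 2-fold and all listed regulators are named too. A few members are not reported here. Calls were tested on simulated data. Alternatives were a 15 PSI threshold, stricter coverage (30 reads for introns), a beta-binomial spread, limma over exons at 2 to 98 PSI, microexons of at most 15 nt, other RPKM filters and scalings, and leaving out each DMSO library. Python 3.11.15, numpy 2.4.6, pandas 2.3.3, matplotlib 3.10.9, R 4.3.3 and limma 3.58.1 were used. Posterior probabilities cover the counting error of reads only.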

Additional observations from a re-analysis of the deposited data

How the results depend on the processing

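No paired analysis was possible because AW00693 has 1 library. With at least 15 PSI, 0 microexons rose, 265 cassette exons fell and 82 rose, 79 introns were retained less and 127 more, and 134 splice sites were used less and 127 more. Stricter coverage left 85 introns retained less and 153 more, and the beta-binomial spread left 194 introns retained more. With microexons of at most 15 nt, 59 fell. limma called 0 microexons and 0 cassette exons in either direction, against 128 and 838 lower and 4 and 296 higher at an unadjusted p below 0.05. Leaving out 1 DMSO library gave 117 to 122 microexons that fell and 3 to 4 that rose, 643 to 715 cassette exons that fell and 225 to 239 that rose, 128 to 136 introns retained less and 227 to 282 more, and 268 to 301 splice sites used less and 267 to 323 more. Above 1 RPKM 594 genes were higher and 456 lower, and with no filter 761 and 578. A pseudocount of 1 RPKM gave 230 and 212, and centring on the median 262 and 224. The log2 ratio of Mbnl1 turned to 0.02 when centred. Gata3 and Mvk fell within 2-fold with a pseudocount of 1 RPKM, and Mvk also when centred. The depth of DMSO C limits events of few reads, and the lone AW00693 library limits every statement to these cultures.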
